A study of Mus musculus with 2 samples.

Results

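Accessible chromatin at 9 genes of trans-synaptic adhesion was described in mouse frontal cortex: the neurexins Nrxn2 and Nrxn3, the neuroligins Nlgn1, Nlgn2 and Nlgn3, and the leucine-rich repeat genes Lrrtm1, Lrrtm2, Lrrtm3 and Lrrtm4. They are 9 of 21938 protein-coding genes in GENCODE vM21 and were named by symbol, not by a measured value. The choice was made with earlier results of these data known. The tissue came from male B6CASTF1/J mice, an F1 hybrid of C57BL/6J and CAST, aged 10 days. There was 1 group of 2 DNase-seq libraries, replicate 1 and replicate 2, with no second condition. DNase-seq maps open chromatin: DNase I cuts the DNA of isolated nuclei where it is exposed, and reads pile up at those cuts. A label note names 3 males for each sample without saying whether they were pooled, and both samples carry the same donor entry. How far the libraries differ is thus the spread of 2 samples, and part of it may be technical. All cell types of the tissue were profiled together, so a weak site in all cells and a strong site in few cells cannot be told apart.

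Neurexins are presynaptic membrane proteins with a large extracellular part, and neuroligins and LRRTMs are postsynaptic membrane proteins that bind them across the synaptic cleft. Each neurexin gene has an upstream alpha promoter, for a long protein with many LNS domains and EGF-like repeats, and a beta promoter deep inside the gene, for a short protein with a single LNS domain. Neuroligin-1 is known from excitatory synapses, neuroligin-2 from inhibitory synapses and neuroligin-3 from both, and LRRTM proteins from excitatory synapses.

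The sequences that carry the main contrasts among these promoters are printed here 5′ to 3′ on the strand of the gene, from the C57BL/6J reference (GRCm38.p6, the mm10 build). Capitals mark bases inside a footprint of both libraries. A footprint is a short stretch protected from cuts inside open DNA. For Nrxn3, 3 windows differ in accessibility: the 5′-most start (chr12:88722741-88722925, the peak up to 50 bases past the annotated start), the first alpha start (chr12:88794254-88794553, no peak) and the beta start (chr12:89812233-89812532). A further Nrxn3 window is the strongest shared peak of the gene outside its promoters (chr12:89106481-89106660, plus strand), which lies in an intron. Nlgn2 is shown by the central 300 bases of its promoter peak (chr11:69838111-69838410, minus strand), the strongest peak of all 9 genes. Lrrtm3 (chr10:64090206-64090505, minus strand) and Lrrtm4 (chr6:80018627-80018926, plus strand) are the strongest and the weakest LRRTM promoters in replicate 1. The alpha, beta, Lrrtm3 and Lrrtm4 windows are RefSeq promoter entries, from 250 bases before to 50 bases after the start, and the others were read from the RefSeq copy of the genome at the peak.
Nrxn3 5′-most start: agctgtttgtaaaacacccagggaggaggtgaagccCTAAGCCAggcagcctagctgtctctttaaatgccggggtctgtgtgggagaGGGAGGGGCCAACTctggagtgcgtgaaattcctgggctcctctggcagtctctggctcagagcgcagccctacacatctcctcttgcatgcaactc
Nrxn3 first alpha start: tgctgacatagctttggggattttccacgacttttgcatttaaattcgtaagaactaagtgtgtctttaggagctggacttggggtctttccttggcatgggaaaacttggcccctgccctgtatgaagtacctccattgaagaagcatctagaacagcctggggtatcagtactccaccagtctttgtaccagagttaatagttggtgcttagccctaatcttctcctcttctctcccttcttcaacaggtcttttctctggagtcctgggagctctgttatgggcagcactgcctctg
Nrxn3 beta start: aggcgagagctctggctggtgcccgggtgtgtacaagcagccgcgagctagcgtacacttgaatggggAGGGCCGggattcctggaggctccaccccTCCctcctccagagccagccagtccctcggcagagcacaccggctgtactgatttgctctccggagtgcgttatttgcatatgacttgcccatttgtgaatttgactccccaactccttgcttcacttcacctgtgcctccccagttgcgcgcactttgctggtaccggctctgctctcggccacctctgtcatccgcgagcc
Nrxn3 intron: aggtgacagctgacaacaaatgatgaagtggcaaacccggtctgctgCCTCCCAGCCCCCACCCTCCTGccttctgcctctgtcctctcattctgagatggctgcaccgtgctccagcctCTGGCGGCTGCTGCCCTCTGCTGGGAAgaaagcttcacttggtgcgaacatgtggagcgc
Nlgn2 promoter: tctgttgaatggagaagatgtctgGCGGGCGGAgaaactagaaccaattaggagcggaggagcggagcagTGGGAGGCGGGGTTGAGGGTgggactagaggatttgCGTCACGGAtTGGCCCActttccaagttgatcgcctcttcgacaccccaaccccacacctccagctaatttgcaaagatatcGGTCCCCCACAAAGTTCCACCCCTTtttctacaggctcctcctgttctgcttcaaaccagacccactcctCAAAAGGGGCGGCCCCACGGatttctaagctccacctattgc
Lrrtm3 promoter: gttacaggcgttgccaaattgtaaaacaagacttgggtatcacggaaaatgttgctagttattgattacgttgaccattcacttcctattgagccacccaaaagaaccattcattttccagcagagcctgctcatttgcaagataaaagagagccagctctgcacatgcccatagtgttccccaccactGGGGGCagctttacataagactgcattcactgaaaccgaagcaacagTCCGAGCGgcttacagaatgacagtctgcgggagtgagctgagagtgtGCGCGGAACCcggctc
Lrrtm4 promoter: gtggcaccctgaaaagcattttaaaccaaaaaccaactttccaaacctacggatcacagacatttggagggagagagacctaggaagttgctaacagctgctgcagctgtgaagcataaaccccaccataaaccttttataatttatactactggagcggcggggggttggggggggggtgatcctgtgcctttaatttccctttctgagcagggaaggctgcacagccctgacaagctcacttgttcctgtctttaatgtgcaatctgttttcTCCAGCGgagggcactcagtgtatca

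The windows differed in how much of them was protected in both libraries. They also differ in length and in how much of a peak they cover, so the base counts are not directly comparable. The central 300 bases of the Nlgn2 peak held 90 bases in 6 runs. The intronic peak of Nrxn3 held 49 bases in 2 runs, and the peak at its 5′-most start 22 bases in 2 runs. The beta window held 10 bases and the first alpha window 0. The Lrrtm3 window held 24 bases in 3 runs and the Lrrtm4 window 7 bases in 1 run.

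Replicate 1 had 39608 peaks in the main list and replicate 2 had 45915, each with a base at a false discovery rate (FDR) under 0.001. Absolute read depth is unknown. Densities are whole multiples of a fixed step, and by these steps replicate 2 was 1.64 times as deep as replicate 1. Peak strength is given as the authors' cleavage density and as its percentile, the percent of peaks in the same library with that density or a lower one. A shared peak is a replicate 1 peak that overlaps a replicate 2 peak by at least 1 bp. The labelled tissue was checked against marker genes. Peaks within 1 kb of a start were present in both libraries at 4 of 7 markers of forebrain excitatory neurons and 3 of 6 of interneurons (6 and 5 in the second run), near the 55.1% of all protein-coding genes. They were present at 2 of 5 astrocyte, 4 of 5 oligodendrocyte-lineage, 1 of 4 microglial and 1 of 4 endothelial markers. The 5 hindbrain markers had no peak in their spans in either library.

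The gene body plus 10 kb upstream, called the span, of the 9 genes held 49 peaks in replicate 1 and 59 in replicate 2. In replicate 1, 39 of these (79.6%, with a 95% Wilson interval of 66.4 to 88.5) were shared, against 80.1% of 39608 in the whole library. In replicate 2, 40 (67.8%, 55.1 to 78.3) met a peak of replicate 1, against 69.6% of 45915. The intervals cover counting error only. Each of the 9 genes held at least 1 shared peak, as did 64% of all protein-coding genes. In each main list the share of the whole list lay inside the interval of the adhesion genes. In the looser list of replicate 2 it did not, with 54.7% (46.4 to 62.7) shared in the adhesion genes against 64.9% of the whole list.

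By position, introns and promoters held most of the peaks. Introns held 26 of 49 peaks in replicate 1 and 33 of 59 in replicate 2, and promoters 21 in each library. The promoter peaks were the stronger class, with a median percentile of 53.6 in replicate 1 and 57 in replicate 2, against 34.3 and 43.8 for the intronic peaks. Of the peaks, 0 in replicate 1 and 2 in replicate 2 had their midpoint in an exon away from a start. Footprints numbered 206 in replicate 1 and 269 in replicate 2, of which 133 and 153 lay inside the main peaks of the same library. Of the replicate 1 footprints, 108 (52.4%, 45.6 to 59.1) were found again in replicate 2, against 55.6% over the whole library, and 105 of the 269 (39%) in the other direction, against 40.7%. Hotspots, which are broader stretches of raised cutting, numbered 108 and 146, and 93 of the 108 (86.1%, 78.3 to 91.4) were shared, against 78.8% over the whole library. In replicate 2 the order was the other way, with 91 of 146 (62.3%, 54.2 to 69.8) against 67.6%.

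All 9 genes had a peak within 1 kb of an annotated start in both libraries, against 55.1% of protein-coding genes. In the smaller peak list of the second processing run, made by the authors from the sequencing reads rather than from filtered alignments, all 9 passed as well, against 57.9%. The share depends on length: in the longest decile of genes, which holds Nrxn2, Nrxn3, Nlgn1, Lrrtm3 and Lrrtm4, it was 78.8%. Counting starts and not genes, starts within 1 kb of each other were joined into 27 promoters. Of these, 13 were open in both libraries, 3 in 1 library and 11 in neither. The closed starts belonged to Nrxn2, Nrxn3, Nlgn1, Nlgn2 and Nlgn3, and the 4 LRRTM genes had 1 joined start each.

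**Figure D1:**
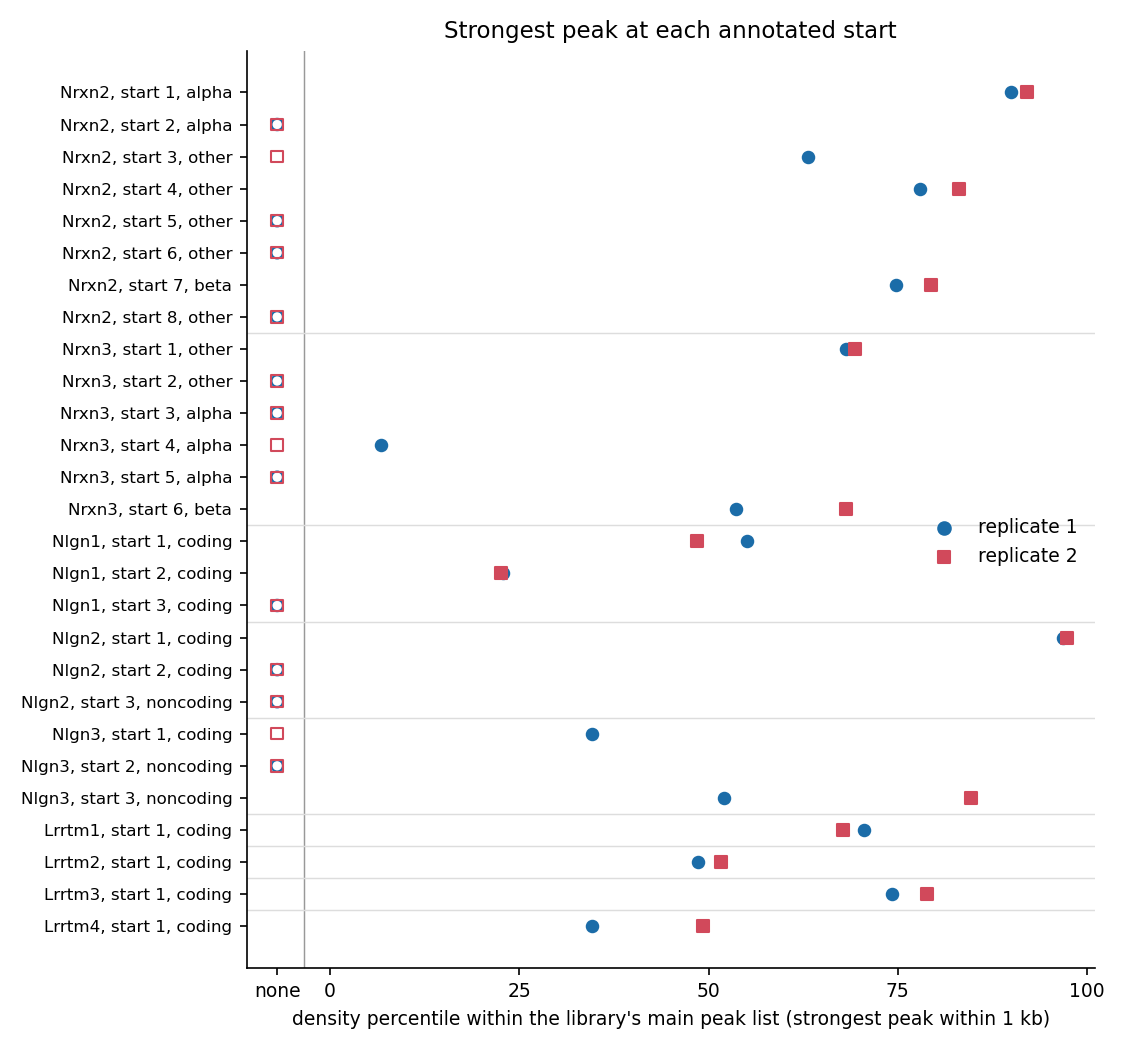
Density percentile of the strongest main-list peak within 1 kb of each of the 27 joined starts (horizontal axis, percent of the library's peaks at or below that density), numbered from the 5′ end of each gene, with circles for replicate 1 and squares for replicate 2. Open symbols at none mark starts without a peak, and the highest points are Nlgn2 start 1 at 96.8 and 97.4 and Nrxn2 start 1 at 90.0 and 92.1.

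The closed starts differed from the open ones in the gene models. Of the 11 joined starts without a peak in either library, 7 lay inside an inner exon of another GENCODE transcript of the same gene. Of the 13 open in both libraries, 1 did, at Lrrtm4, and of the 3 open in 1 library 0 did. In RefSeq transcripts the open start of Lrrtm1 did as well. A joined start counts here if any of its starts lies in such an exon. The same shares over all protein-coding genes were not counted, so this may not be particular to these genes. The first alpha start of Nrxn3 fell on the very first base of an inner exon in 5 GENCODE and 41 RefSeq transcripts, and the 3 bases just before it are cag, as printed. The annotation was not altered for these counts, and whether these ends are true transcription starts was not tested.

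Nrxn2, on chromosome 19 (6418731-6544169, plus strand, 125 kb), was open at its alpha and its beta promoter. Here an alpha start belongs to a protein-coding transcript of at least 1000 codons, and a beta start to a shorter protein-coding transcript that begins at least 10 kb further in and ends at the same stop codon. The first alpha start (6418731-6418765) lay in a peak of density 6.04 in replicate 1 and 4.23 in replicate 2, at percentiles 90.0 and 92.1. The lowest FDR within 1 kb was 1.46e-25 and 2e-44. The hotspot there spanned 902 and 872 bp, and 7 footprints of replicate 1 were found again in replicate 2. The start of a processed transcript, Gm14965, lies inside the same peak, so the openness cannot be assigned to either gene. The second alpha start (6427923-6428646) had no peak in either library and a lowest FDR of 0.0196 in replicate 1.

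The beta start of Nrxn2 (6497671-6497835) had its peak upstream, with midpoints 291 and 300 bp before the nearest start. Its density was 2.77 in replicate 1 and 2.07 in replicate 2, at percentiles 74.8 and 79.4. In both libraries the beta peak therefore ranked below the alpha peak. Of its 9 footprints in replicate 1 and 5 in replicate 2, 7 of replicate 1 were shared. A further start of a retained-intron transcript (6454571) had a peak at percentiles 78.0 and 83.1, 871 bp away in replicate 1. The start at 6445460-6446298 had a peak in replicate 1 only, at percentile 63.1, and in both libraries in the second run, at 70.5 and 64.1. The remaining 3 starts had no main peak.

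Inside Nrxn2, the introns held a cluster of sites. The strongest 2 shared peaks outside promoters were at 6452041-6452480 (percentiles 71.6 and 83.1), 33.5 kb from the 5′ end, and at 6489061-6489280 (69.3 and 78.7), 70.4 kb in. The second of these lies 1547 bp from a short inner start. In all, 8 peaks of replicate 1 were shared, or 0.591 per 10 kb, against a median of 0.123 over the 2194 genes of the longest decile, with quartiles of 0.0632 and 0.196. Hotspots and footprints were denser too: 1.48 shared hotspots per 10 kb against 0.232, and 2.22 shared footprints against 0.315. Replicate 2 had 16 peaks in the span and replicate 1 had 10, and 5 of the 7 unshared replicate 2 peaks lay within 2.5 kb of the 5′ end.

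Nrxn3, on chromosome 12 (88722876-90334935, plus strand), is 1612 kb long, and its accessible starts were the 5′-most and the beta start. The 5′-most start (88722876-88723109) lay in a peak of density 2.22 in replicate 1 and 1.5 in replicate 2, at percentiles 68.2 and 69.4, with the same borders in both libraries (88722741-88722980). GENCODE gives this start 4 transcripts, of retained-intron and nonsense-mediated-decay type, so that it is not an alpha start by the definition used here. RefSeq starts 27 Nrxn3 models at 88722701, next to the peak, with coding lengths of 1425 to 1696 codons, which is alpha length. All 27 are predicted. A further 7 predicted models of 1696 codons start near the second GENCODE start, which had no peak, and a curated model of 1571 codons starts at the first alpha start. Within 1 kb of the 5′-most start, the lowest FDR was 1.69e-11 in replicate 1 and 2.62e-12 in replicate 2, and 2 footprints were shared.

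The 3 alpha starts that GENCODE gives Nrxn3 had little or no accessibility. At the first (88794504-88795439), no base within 3 kb of it had an FDR below 0.05 in either library. At the second (88953390-88953399), replicate 1 had a weak peak of 55 bp, at percentile 6.68, and replicate 2 had none. The lowest FDR there was 0.000613 and 0.000999, and both libraries had a weak peak in the second run, at percentiles 7.61 and 8.23. The third (89193106), which falls in an inner exon of 5 other GENCODE transcripts, had none.

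The beta start of Nrxn3 (89812483), 1090 kb into the gene, was open in both libraries. Its peak had a density of 1.57 in replicate 1 and 1.46 in replicate 2, at percentiles 53.6 and 68.2, with the midpoint 212 and 172 bp upstream. The hotspot around it was the wider one, at 1086 and 1016 bp against 504 and 495 bp at the 5′-most start. Of 5 footprints of replicate 1 at the beta start, 1 was shared. The beta peak of replicate 2 held 4 footprints, of which 2 were shared.

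**Figure D2:**
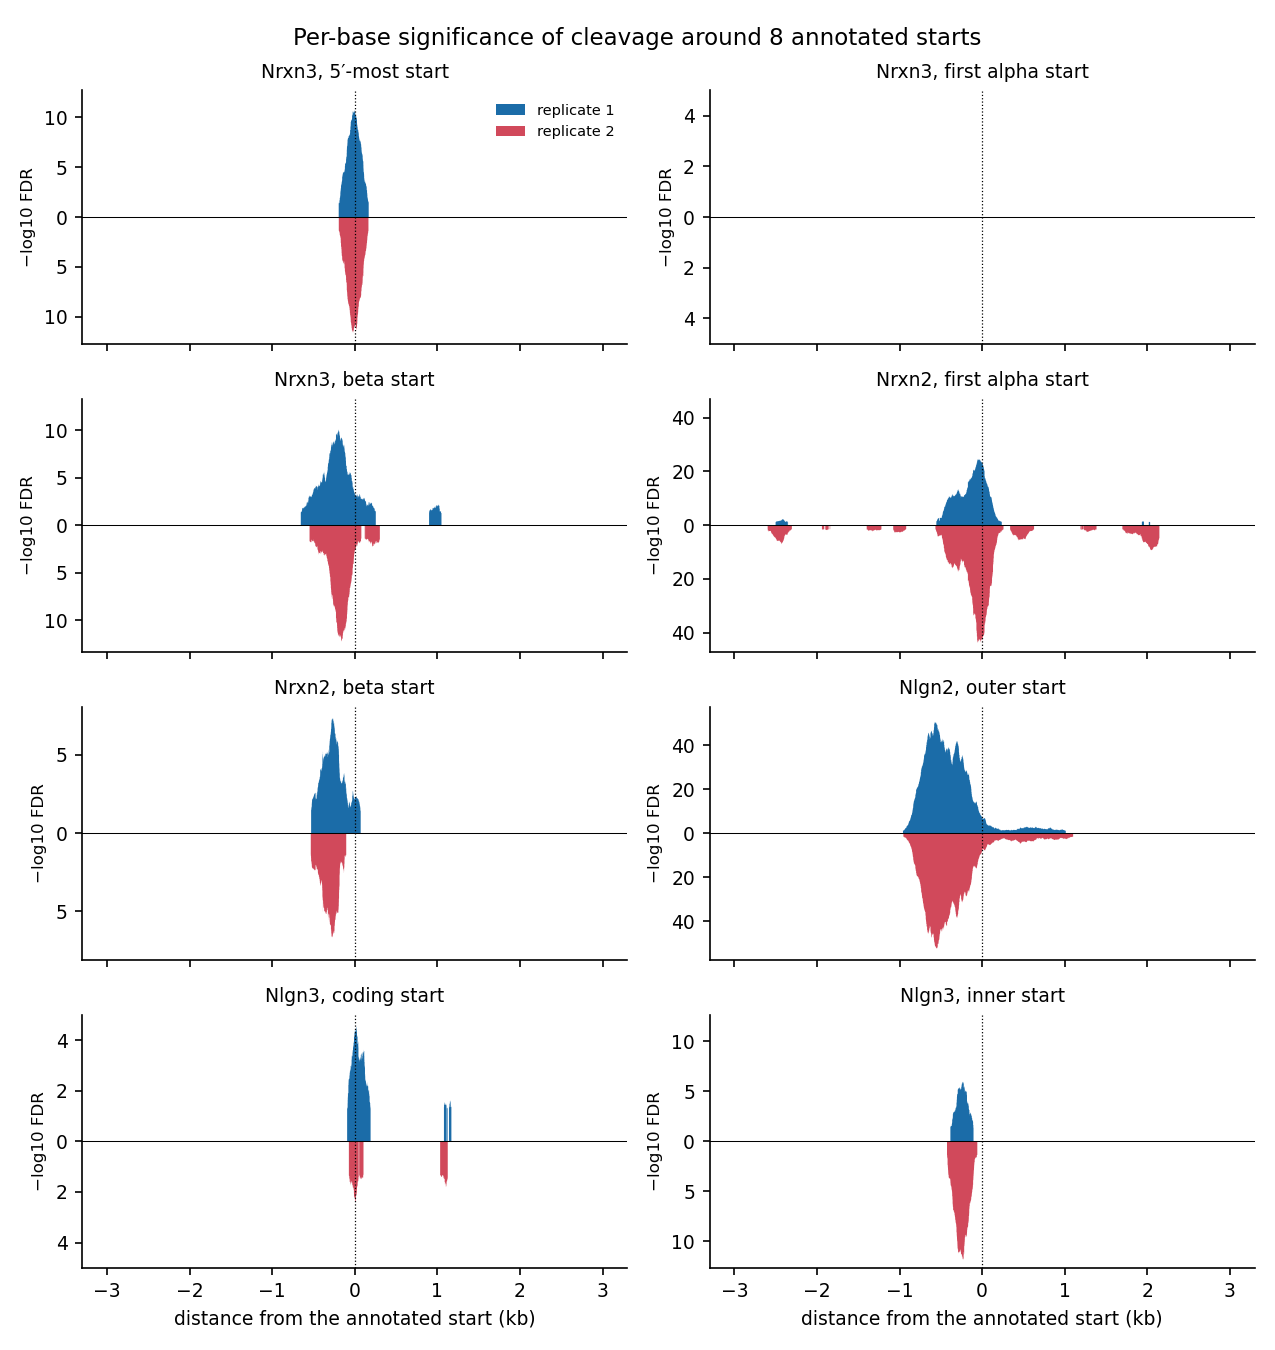
Significance of cleavage per base, as −log10 of the authors' FDR (vertical axis, replicate 1 upward and replicate 2 downward, scaled per panel), against distance from 8 annotated starts in kb, positive downstream. Bases at an FDR of 0.05 or higher are not listed and are drawn at 0. The panel of the first alpha start of Nrxn3 is empty, and the peak of the Nlgn2 panel reaches 51.0 and 52.4.

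The introns of Nrxn3 held most of its sites. It had 18 peaks in replicate 1 and 19 in replicate 2, of which 13 were shared, and 15 and 17 lay outside promoters. Their strength varied widely, between percentiles 1.15 and 69.9 in replicate 1 and between 8.45 and 68.0 in replicate 2. The strongest shared one was at 89106481-89106660 (69.9 and 68.0), 384 kb from the 5′ end, and the next at 89377281-89377593 (53.2 and 66.4), 655 kb in, beside a further shared peak at 89377045-89377280 (40.7 and 65.4). Per 10 kb the gene had 0.0801 shared peaks, against a median of 0.123 for its length class, and 0.253 shared hotspots, close to the median of 0.232. That class is the longest decile, which also holds genes as short as Nrxn2 (125 kb), so it does not match Nrxn3 in length. Shared peaks per length were thus 7.37 times as dense in Nrxn2, with a span of 135 kb, as in Nrxn3, with a span of 1622 kb. By count Nrxn3 had more of them, 13 against 8.

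**Figure D3:**
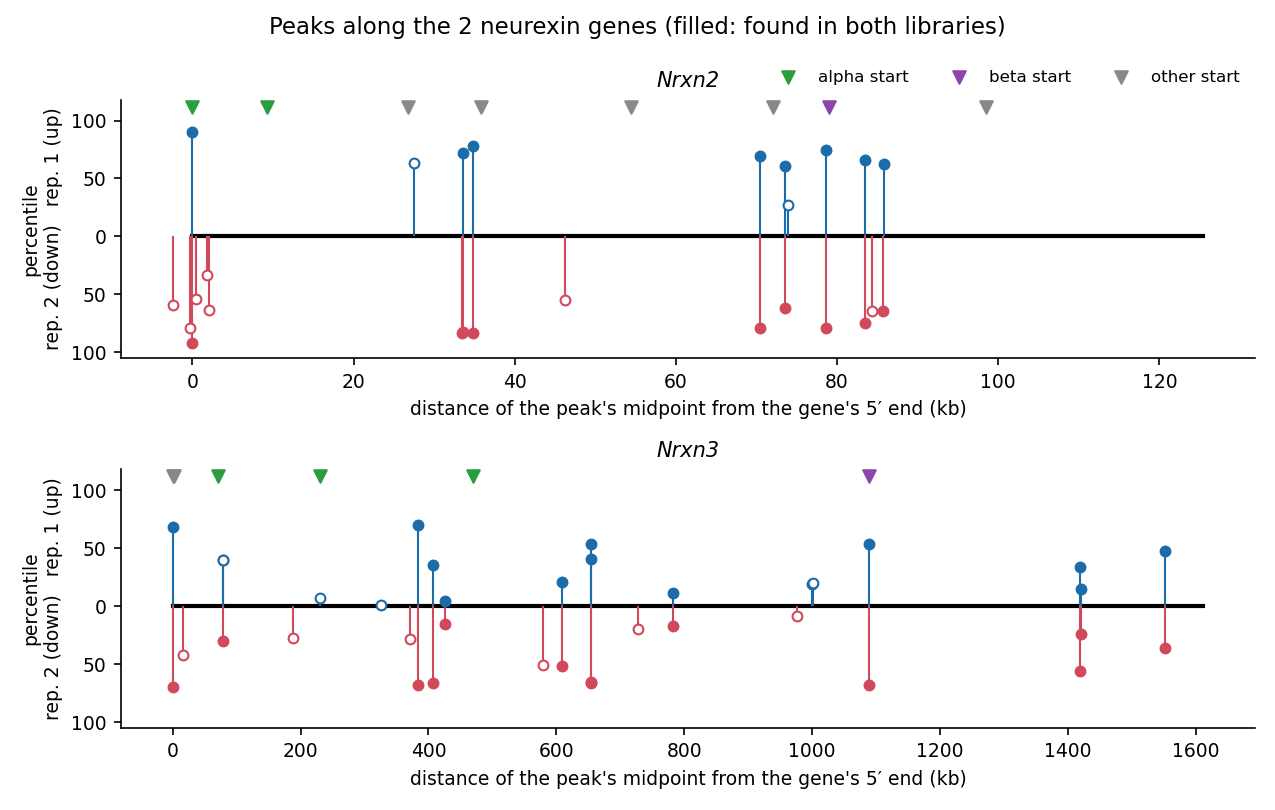
Main-list peaks of Nrxn2 (top) and Nrxn3 (bottom) by distance of the midpoint from the 5′ end of the gene (horizontal axis, kb) and density percentile (vertical axis, replicate 1 upward and replicate 2 downward). Filled circles are peaks found in both libraries and triangles mark annotated starts by class. In Nrxn3 the 5′-most and beta starts have filled circles in both libraries, and the alpha starts do not.

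Among the neuroligins, Nlgn2 had the strongest promoter of all 9 genes, Nlgn1 one spread over several peaks and Nlgn3 its most open site away from the coding start. Nlgn2 (chromosome 11, 69823122-69837784, minus strand, 14.7 kb) had a promoter peak at 69837961-69838560 of density 10.6 in replicate 1 and 7.32 in replicate 2, at percentiles 96.8 and 97.4. The midpoint lay 477 and 467 bp upstream of the outer coding start. The hotspot was 2102 and 2203 bp wide, with a highest −log10 FDR of 49.4 and 49.2. Starts of Tmem256, which runs the other way, lie in the same peak. The other shared peak of the span, at percentiles 84.5 and 82.8, covers a start of Plscr3 and lies 8707 bp upstream. Both inner starts of Nlgn2 had no peak, and no shared peak of the main list lay in the gene body. Replicate 2 alone had a main-list peak there, at 69837241-69837460 (percentile 54.2). In the second run a peak inside the gene body was shared, at percentiles 51.4 and 60.9.

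Nlgn2 also had the most shared footprints per length of span among the 9 genes. Of 21 footprints in the span in replicate 1 and 25 in replicate 2, 17 and 19 were shared. Per 10 kb the gene had 6.89 shared footprints against a median of 1.28 for its length class. In replicate 1, 9 of the shared footprints lay in the peak that holds Tmem256 starts. Another 5 lay in the peak over a start of Plscr3, so none of these can be assigned to Nlgn2 alone. In the printed window, counted from its 5′ end, the GC box GGGCGG occurred at bases 27 to 32 and 265 to 270, in each case wholly inside a footprint of both libraries. TGACG, the core of the cyclic AMP response element, occurred on the reverse strand at 107 to 111. CCAAT occurred on the forward strand at 44 to 48, outside the shared footprints, and on the reverse strand at 115 to 119. The reverse-strand CCAAT match overlaps TTGGC, the core of the NFI site, at 116 to 120.

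Nlgn1 (chromosome 3, 25426215-26332460, minus strand, 906 kb) had 2 of 3 joined starts open in both libraries. At the outer start (26331870-26332460), the peak over the start, 26331781-26332020, had a density of 1.62 in replicate 1 and 0.830 in replicate 2, at percentiles 55.1 and 37.7. A second peak 981 and 921 bp upstream reached 28 and 48.5, so that the order of the pair was reversed between the libraries. A start of A830092H15Rik, which lies at the same place, falls in the first of these peaks. The inner start (26153307) had weak peaks on both sides, at percentiles up to 22.8 and 22.6, and the innermost (26133734) had none. The 2 shared intronic peaks were at 25903241-25903440 (30.3 and 32.4) and 25807699-25807773 (8.04 and 43.8). At 0.0764 per 10 kb, its shared peaks were sparser than the 0.123 of its length class. Of 26 footprints of replicate 1 at its starts, 15 were shared, against 57 of 98 at the starts of all 9 genes.

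Nlgn3 (chromosome X, 101299168-101325963, plus strand, 26.8 kb) passed the count of open genes through an inner start. Its coding start (101299168-101299210) had a peak in replicate 1, of density 1.13 at percentile 34.6, and none in replicate 2, where the lowest FDR was 0.00437. In the second run this start had a peak in both libraries. A shared hotspot also covered it, with a highest −log10 FDR of 10.9 in replicate 1 and 7.19 in replicate 2. The shared peak lay at 101314047-101314230, 252 bp upstream of the start of a processed transcript at 101314391. Its density was 1.53 in replicate 1 and 2.64 in replicate 2, at percentiles 52.1 and 84.7, and its hotspot reached a −log10 FDR of 16.0 and 36.8. Replicate 2 was thus the higher at the inner start and the lower at the coding start. The animals were male, so that this gene is present in 1 copy per cell.

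Hotspots showed more of Nlgn3 than the main peaks did. The span held 8 hotspots in replicate 1 and 9 in replicate 2, and all 8 were shared, which is 2.17 per 10 kb against a median of 0.434 for its length class and the highest of the 9 genes. Of these, 6 and 8 contained no main peak. The smaller list of the second run had 6 and 5 peaks there, against 2 and 1 in the main list.

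The LRRTM genes all had an open promoter at the start of the gene in both libraries. Of these genes, 3 lie within alpha-catenin genes, Lrrtm1 in Ctnna2, Lrrtm2 in Ctnna1 and Lrrtm3 in Ctnna3, and alpha-catenins are adaptor proteins of cell junctions. Lrrtm3 (chromosome 10, 63928472-64090277, minus strand) had the strongest of the 4 promoters, of density 2.71 in replicate 1 and 2.02 in replicate 2, at percentiles 74.2 and 78.9, with the same borders in both libraries (64090161-64090380). Lrrtm1 (chromosome 6, 77242689-77257791, plus strand) had a peak over its start at 70.6 and 67.8, a second just downstream at 58.2 and 57, and another 2028 and 2092 bp upstream at 51.0 and 52.5. With 3 shared peaks in a span of 25.1 kb, it had the most shared peaks per length of the 9 genes, 1.20 per 10 kb against a median of 0.399 for its length class.

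Lrrtm2 (chromosome 18, 35209003-35215024, minus strand) had a single shared peak, at its start, of density 1.43 in replicate 1 and 1.04 in replicate 2, at percentiles 48.6 and 51.7. A start of Ctnna1 lies in the same peak. Lrrtm4 (chromosome 6, 80018877-80810143, plus strand, 791 kb) had the weakest LRRTM promoter, at percentiles 34.6 and 49.3. Its density was 1.13 in replicate 1 and 1.00 in replicate 2.

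Outside the promoters, the 2 long LRRTM genes had 1 shared peak each. In Lrrtm3 it lay in an intron, at 64076105-64076260, 14.1 kb into the gene, at percentiles 59.9 and 51.0. In Lrrtm4 it lay at 80490153-80490240, 471 kb into the gene, at percentiles 3.68 and 7.5. Lrrtm4 had 0.025 shared peaks per 10 kb, the lowest of the 9 genes, and below the lower quartile of its length class, 0.0632. Lrrtm3, at 0.116, was close to the median of 0.123.

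**Figure D4:**
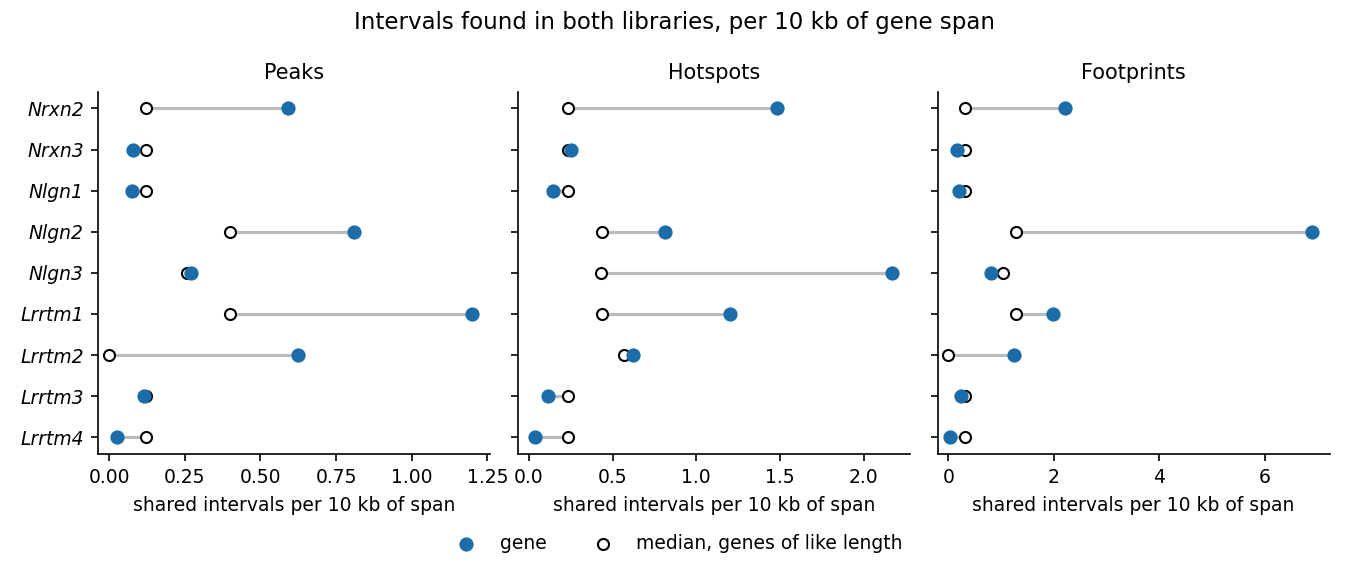
Shared main-list peaks, hotspots and footprints per 10 kb of span (horizontal axes) for each of the 9 genes (filled circles), with the median over protein-coding genes in the same decile of gene length (open circles). Nrxn2 lies above its open circle in each panel, and Lrrtm4 below it in each.

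Over the 9 genes the median was 0.272 shared peaks per 10 kb, against 0.208 over all protein-coding genes. The 2 sets are not matched for length, with a median gene body of 125 kb against 17.4 kb. The median of the 9 genes depended on the setting. It was 0.624 in the smaller list of the second run, against 0.273 over all protein-coding genes. It was 0.544 in replicate 1 alone, 0.124 with the gene body alone and 0.0943 with 50 kb on each side. Footprints gave 0.815 against 0.629. The genes themselves ranged from 0.025 to 1.20 shared peaks per 10 kb. Relative to the median of their own length class, Nrxn2, Nlgn2, Nlgn3, Lrrtm1 and Lrrtm2 were higher and Nrxn3, Nlgn1, Lrrtm3 and Lrrtm4 lower. The longest decile is a wide class: its members here run from Nrxn2 (125 kb) to Nrxn3 (1612 kb). Lengths were not matched within it, so these calls for Nrxn2, Nrxn3, Nlgn1, Lrrtm3 and Lrrtm4 are not free of gene length. Only Nrxn2, Nlgn2 and Lrrtm1 lay above the upper quartile of the class and only Lrrtm4 below the lower one. The 2 shared peaks of Nlgn2 both cover starts of other genes. Nlgn3 (0.272 against 0.258) and Lrrtm3 (0.116 against 0.123) were close to the class median.

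The shared peaks of these genes had a lower median CpG ratio than all shared peaks, with no test of the difference. Windows of 200 bp around the midpoints had a median ratio of observed to expected CpG of 0.326 over 39 peaks, against 0.549 over 31722. Split by position, the medians were 0.590 over 18 peaks near any gene start against 0.794, and 0.192 over the 21 others against 0.286. GC content differed less, at 55.5% against 58.5%. The Nrxn3 5′-most window, as printed, had a ratio of 0.198 and the first alpha window 0.119, while the beta window had 0.588.

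Exact letters of 22 motifs were searched on both strands in the same windows. The GC box GGGCGG was found in 9 of 39 windows (23.1%), against 35.7% of all shared peaks. GGAAGT, the core of ETS sites, was found in 0 of 39, which allows a share of up to 8.97% by the Wilson interval, against 16.1%. It did occur in 4 of 10 RefSeq promoter entries of these genes, against 23.8% of 32851 entries, 6 of the 9 genes having an entry. TTGGC was found in 19 of 39 (48.7%) against 44.0%, and CANNTG, the E-box, in 25 of 39 (64.1%) against 60.7%. With 22 motifs searched and 39 windows, none of these shares was tested.

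The intronic peak of Nrxn3 printed above held a match to the CTCF consensus, which was added to the search after this sequence was seen. The match lies on the reverse strand at bases 131 to 144 and wholly inside the longer footprint common to both libraries. The consensus was found in 3 of 39 windows (7.69%, 2.65 to 20.3), against 5.74% of all shared peaks, and in 0 of the 18 near a gene start. The other matches were the Nrxn2 intronic peak at 6489061-6489280 and a weak Nrxn3 intronic peak at 89505298-89505362 (percentiles 11 and 17.3). In the 5′-most window of Nrxn3, TTGGC occurred on the reverse strand at 96 to 100, inside a shared footprint. The beta window held a match to ATGCAAAT, the octamer of POU factors, on the reverse strand at 170 to 177 and outside the shared footprints.

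Other genes of the same synaptic pathway were counted by the same rule. A peak stood at a start in both libraries in 39 of 49 genes, beside 9 of the 9 genes described here and 55.1% of all protein-coding genes, and in 44 in the second run. These shares were not tested against each other and the pathway genes were not matched for length. In the longest decile of all protein-coding genes the share was 78.8%. Among 18 secreted and surface partners of neurexins and neuroligins, 13 were open. The 2 of these with the most shared peaks per 10 kb were Adgrl1 (1.16), a latrophilin, and Cbln1 (0.704), a secreted cerebellin. Among 19 other synaptic adhesion genes, 15 were open, led by Slitrk4 (1.36) and Slitrk1 (1.30). Flrt1, also of this group, was the only one of the 49 with no peak in its span. All 9 intracellular partners were open, led by Dlg4 (0.986), the postsynaptic scaffold PSD-95, and Lin7b (0.788). Of 3 splicing regulators of neurexin transcripts, Khdrbs1 (0.204) and Khdrbs2 (0.0202) were open, and Khdrbs3 was open in the second run only.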

How the data were processed

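The 2 libraries form 1 group, taken from the tissue label. All interval lists were made per library on mm10 and not on pooled samples, per the deposited text lists. The main and looser peak lists and the per-base FDR came from filtered alignments (the first run), and hotspots and 2 further peak lists from sequencing reads (the second run). The sources used here give no aligner, caller or threshold. Peaks carry a cleavage density, a signal that the authors normalised for read depth. Hotspots carry the highest −log10 FDR, per the file headers. The p-value column of the deposited footprint lists holds 0.01 in every line, a threshold. The deposited per-base p-value tracks list an FDR for bases under 0.05. Deposited positions-only footprint lists of replicate 2 served as alternatives.

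From these files, peaks, hotspots and footprints were counted by midpoint in GENCODE vM21 gene bodies plus 10 kb upstream (the gene and its upstream flank), with peaks within 1 kb of a start as promoter peaks. The first-run lists were identified by the lowest FDR inside their peaks. Steps between densities, whole within 0.05 of a step, gave the relative depth. Densities are the authors' values and are ranked within a list. Footprints carry no strength. With 1 group of 2 libraries no test was made, and shares carry 95% Wilson intervals for counting error. The animals are F1 hybrids, and mapping bias towards the C57BL/6J reference was not examined. Sequences came from the RefSeq promoter table and genome (GRCm38.p6), and motifs were exact letters. The named items were all 9 genes, the strongest shared peak at each promoter and the strongest 2 shared peaks elsewhere, by mean percentile. In the pathway lists they were the 2 open genes per list with most shared peaks per 10 kb. The members and lists were chosen with earlier results of these data known. Counting was tested on simulated intervals. Python 3.11.15, numpy 2.4.6, pandas 2.3.3 and matplotlib 3.10.9 were used. Alternatives were other peak lists, a stricter list with a base at an FDR of 0.0001 or lower, equal list size, 50% reciprocal overlap, other windows and spans, and each library left out.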

Additional observations from a re-analysis of the deposited data

How the results depend on the processing

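Of 61 alternative values, 46 stayed within the margin set for them, 1.5 times for counts and the interval or the SD between libraries for shares and medians. That SD, from 2 libraries, was 0.192, a wide margin around a median of 0.272, so that 0.124 and 0.0943 counted as within it. The 61 include the count of CTCF consensus matches, which was not planned and was set against a different CTCF motif. The 13 promoters open in both libraries became 12 to 17, and each of the 9 genes kept a shared peak except with the gene body alone, where 8 did, since both shared peaks of Nlgn2 lie upstream of it. The 39 shared peaks became 74 in the looser list and 77 in the larger list of the second run, which hold more peaks. Counting 1 library alone gave 49 to 59 peaks, 108 to 146 hotspots against 93 shared, 206 to 269 footprints against 108 shared, and a median of 0.272 to 0.544 peaks per 10 kb. The share of replicate 1 peaks that were shared was 63.3% with 50% reciprocal overlap, against 79.6%. The median of 0.272 shared peaks per 10 kb was 0.624 in the looser list and in both lists of the second run, 0.124 with the gene body alone and 0.0943 with 50 kb on each side, and the cause was not tested. Shared footprints numbered 70 with 50% reciprocal overlap, 68 in the gene body alone, 164 with 50 kb on each side and 67 against the smaller positions-only list of replicate 2. No paired analysis was possible because there is 1 group. Absolute depth is unknown, and a closed start means that no peak was detected at this depth.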
